A study of Oryctolagus cuniculus with 4 samples.

Results

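The lineage transcription factor families are genes whose products bind DNA and set or hold the identity of a cell type. Members were taken by symbol alone, as every gene of the matrices named KLF, SOX, FOX, GATA, HOX, TBX, PAX, GRHL, ELF, RUNX or ZEB with its number, together with PROX1, PPARG and TCF21 (TWIST and SNAI were also looked for and matched no symbol). The rule uses no measured value, though the families were picked with earlier results of these data known. They were 89 of the 18475 genes in the matrices, of which 9771 carried a symbol, so family members without a symbol are not analysed here. Of the 89, 80 had at least 1 count, 58 of them had at least 100 and 6 of them fewer than 10. The 9 without a count were FOXB2, FOXI1, HOXB1, PAX1, PAX4, PAX7, SOX14, TBX19 and TBX22.

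The cells came from 4 samples of bladder mucosa (adult New Zealand rabbits in the study's methods, with no sex or exact age given). The study treats them as biological replicates and each is called a rabbit here, although the labels do not say that every sample came from another animal. The normal group was 2 rabbits with unwounded mucosa (Normal_1 and Normal_2), and the injury group was 2 rabbits sampled on day 10 after a piece of mucosa had been cut away (Injury_1 and Injury_2). Single cells were captured in droplets, and each RNA molecule carried a unique molecular identifier (UMI), so that a count is a number of molecules read at the 3′ end. The labels name the tissue urothelium, but epithelial-like cells were 2.84% to 10.2% of the cells kept per rabbit.

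The families work by different rules. GATA, GRHL, ELF, KLF and PPARG proteins switch on barrier and differentiation genes in epithelia, and in the urothelium GATA3, PPARG and KLF5 are known for the programme that leads from basal cells to superficial umbrella cells. HOX genes lie in clusters A to D, and the stretch of cluster that a cell uses records its position along the body axis and its tissue of origin. TCF21, TBX and several FOX factors act in mesenchyme, PROX1 sets lymphatic endothelial identity, and ZEB factors repress epithelial genes.

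After the study's limits on UMIs, genes and mitochondrial share, 21945 of 25659 barcodes were kept, with 4308 to 6081 cells and 24798544 to 44542420 UMIs per rabbit, and Normal_1 was the shallowest. Member genes together took 1881 to 2316 CPM (counts per 1000000 UMIs) in the cells kept. Any pair of libraries shared 4 to 12 barcodes. Clusters were named from fixed markers, without using member genes for the clustering, and gave 10 named classes and 799 unnamed cells. Levels are the UMIs of a gene over all UMIs of that class in a rabbit, as CPM, averaged over the rabbits with at least 10 cells of the class. Levels are compared between cells. Genes are not ranked by level, because capture at the 3′ end differs from gene to gene, and the share of a gene in a sum over genes is a share of UMIs read only. Of the 80 members with a count, 43 had a mean of at least 10 CPM in some class, and the highest class of 15 of these did not overlap the next class in any rabbit. The 15 include 3 highest in glial-like and 2 highest in mast cell-like cells, classes of 117 and 106 cells. The share of all genes without such overlap was not counted, so 15 of 43 says nothing particular about the members. A class against another is a description and carries no test.

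**Figure D1:**
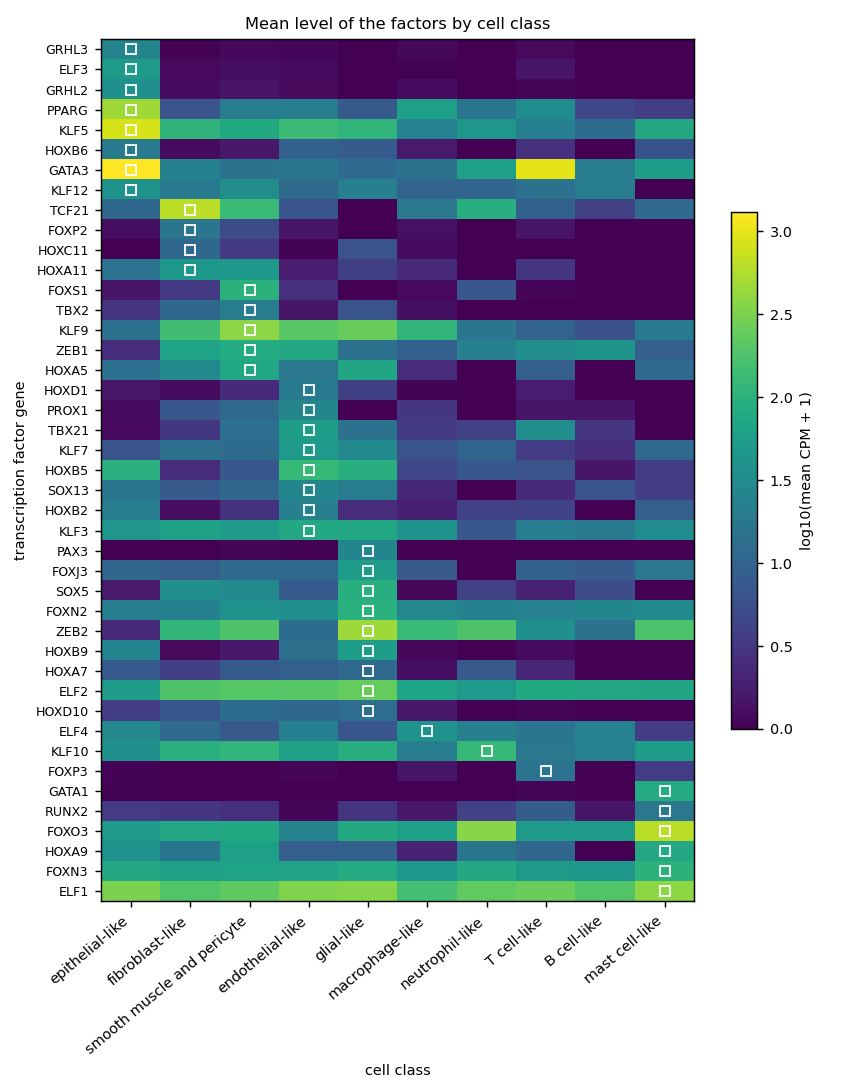
Mean level of the 43 members that had at least 10 CPM in a class, as log10(mean CPM + 1) in colour, by gene (vertical axis) and cell class (horizontal axis), with a white square on the highest class of each gene. Squares fall on the epithelial-like class for 8 genes, the fibroblast-like class for 4, smooth muscle cells and pericytes for 5, the endothelial-like class for 8 and the glial-like class for 9.

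The epithelial-like cells (1531 cells, 171 to 565 per rabbit) had 8 of the 43 members at their highest level. GATA3 was at 968, 609, 2068 and 1604 CPM in Normal_1, Normal_2, Injury_1 and Injury_2. PPARG, a fatty-acid-sensing nuclear receptor, was at 646, 377, 425 and 413 CPM in the same order. KLF5, a zinc-finger factor of proliferating epithelia, was at 762, 565, 1038 and 1012 CPM. GATA3 is also a T cell factor, and the T cell-like class had 982 ± 418 CPM (SD, n = 4) against 1312 ± 651 (SD, n = 4) in epithelial-like cells, ranges that overlapped. No overlap was seen for PPARG, with 465 ± 122 CPM against 55.8 ± 18.4 in macrophage-like cells, the next class, nor for KLF5, with 844 ± 224 CPM against 132 ± 52.5 in endothelial-like cells.

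Among members of at least 10 CPM in epithelial-like cells, the barrier factors had the highest ratios to the next class. GRHL3, which directs epidermal and urothelial barrier formation, was at 25.3 ± 13.5 CPM (SD, n = 4) on 599 UMIs, and the next class, T cells, held 1 UMI. ELF3, an epithelial ETS factor, was at 51.0 ± 16.1 CPM on 1042 UMIs and no other class had a mean above 0.49 CPM. GRHL2, which maintains cadherin junctions, was at 35.6 ± 9.58 CPM on 780 UMIs, and no other class passed 0.46 CPM. HOXB13, the last gene of the HOXB cluster, was at 5.94 ± 2.12 CPM, against 0.07 ± 0.07 in fibroblast-like cells. SOX9 was low, at 5.97 ± 2.62 CPM on 138 UMIs. The EMT factors stood at the other end, with ZEB1 at 1.57 ± 1.15 CPM and ZEB2 at 1.44 ± 0.72 CPM in epithelial-like cells, against 82.2 ± 45.2 and 182 ± 46.6 CPM in smooth muscle cells and pericytes.

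Within the urothelium, cells with KRT5 and no uroplakin (314 cells, a basal-type gate) were set against cells with UPK1B or UPK3B and no KRT5 (679 cells) in the same rabbit. The uroplakin gate does not part umbrella from intermediate cells, in which the study also saw uroplakin genes. KRT5 cells had a median of 16449 UMIs and uroplakin cells 12439. GATA3 was at 635 against 1447 CPM in Normal_1, 334 against 1896 in Normal_2, 1356 against 2297 in Injury_1 and 1200 against 1861 in Injury_2, lower in the KRT5 cells of all 4 rabbits. Its log2 fold change was -1.09 (SE 0.26, adjusted p = 0.0185, edgeR's quasi-likelihood test with Benjamini-Hochberg adjustment, the test behind every adjusted p given here unless another is named). HOXB5 was likewise lower in the KRT5 cells of all 4 rabbits, at 66.6 ± 30.9 CPM against 130 ± 21.1 (SD, n = 4), with a log2 fold change of -0.88 (SE 0.20, adjusted p = 0.0153).

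Higher in KRT5 cells were KLF9, a glucocorticoid-responsive repressor, and KLF10, an early response gene of TGF-beta. KLF10 was at 64.3, 43.5, 41.5 and 29.5 CPM in the KRT5 cells of Normal_1, Normal_2, Injury_1 and Injury_2, against 25.5, 28.9, 19.6 and 19.6 in uroplakin cells, with a log2 fold change of 1.1 (SE 0.23, adjusted p = 0.0106). KLF9 had a log2 fold change of 1.32 (SE 0.30, adjusted p = 0.0146). Of 25 members tested 4 were called, beside 18.4% of the 5009 genes tested, and the median log2 fold change was -0.14 over the members and 0.01 over all genes.

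GRHL3 stood just outside, at 4.55 and 4.10 CPM in the KRT5 cells of the normal rabbits against 29.6 and 33.8 in their uroplakin cells, and at 24.2 and 28.7 against 42.8 and 35.0 in the injured rabbits (log2 fold change -1.21, SE 0.38, adjusted p = 0.0519). ELF3 was higher in KRT5 cells in 3 of 4 rabbits (log2 fold change 0.76, adjusted p = 0.0726), PPARG in 4 of 4 (0.57, adjusted p = 0.116), and KLF5 was lower in 4 of 4 (-0.21, adjusted p = 0.256), none of them called. Among lineage factors of other families, 40 genes fixed as a list of which 24 were in the matrices, 1 of 8 tested was called, the epithelial ETS factor EHF (log2 fold change 0.55, SE 0.16, adjusted p = 0.0363). TP63, the master regulator of stratified epithelia, was at 23.5 ± 6.14 CPM in KRT5 cells and 20.2 ± 6.37 in uroplakin cells (adjusted p = 0.262). With cells above 10% mitochondrial UMIs left out 1 of the 4 members was called, HOXB5 (adjusted p = 0.0371), and without the rabbit as a term 0 were. Without Normal_2, the rabbit with the fewest uroplakin cells, 2 members were called.

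In the comparison of injured with normal urothelium, HOXA9 was the 1 member called of 40 tested, beside 1.72% of the 7045 genes tested. HOXA9, a posterior HOX gene, was at 16.9 and 14.1 CPM in the normal rabbits and at 60.2 and 59.8 CPM in the injured ones, on 89, 43, 436 and 336 UMIs. Both injured rabbits thus lay above both normal ones, and the gene rose 3.26-fold (log2 fold change 1.71, SE 0.25, adjusted p = 0.0418). The call was lost without Injury_1 or Injury_2 (0 members called), and at a mitochondrial limit of 10%, where the adjusted p was 0.0625. The median log2 fold change was 0.39 over the 40 members and 0.00 over all genes. DESeq2 called 5 members, HOXA9, HOXB6, KLF10, GATA3 and ELF3, beside 512 of the 7045 genes.

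Other members had groups that did not overlap but were not called. The share of all genes without overlap was not counted, so the lack of overlap is a description only. HOXA11 was at 7.96 and 6.91 CPM in normal and 21.5 and 20.7 CPM in injured urothelium (log2 fold change 1.26, SE 0.30, adjusted p = 0.0951). HOXB6 was at 3.03 and 7.89 CPM against 37.3 and 23.5 (2.24, SE 0.56, adjusted p = 0.103), and HOXB2 at 13.1 and 7.56 against 25.7 and 32.0 (1.25, SE 0.33, adjusted p = 0.122). GATA3 had a log2 fold change of 0.99 (SE 0.28, adjusted p = 0.134) and GRHL3 of 1.12 (SE 0.28, adjusted p = 0.103). In the other direction KLF10 was at 47.2 and 49.7 CPM in normal and 24.2 and 23.1 CPM in injured urothelium (-1.29, SE 0.26, adjusted p = 0.0750), and ELF3 at 70.4 and 57.5 against 41.7 and 34.5 (-0.99, SE 0.22, adjusted p = 0.0888). In all, 14 of the 40 members had an unadjusted p under 0.05, beside 1441 of the 7045 genes tested. Of the list of other lineage factors, 1 of 12 tested was called, the muscle and endothelial factor MEF2C, at 15.7 and 25 CPM in normal and 3.59 and 3.03 in injured urothelium (log2 fold change -2.88, SE 0.44, adjusted p = 0.0424). In endothelial-like cells MEF2C was at 354 and 335 CPM in normal and 391 and 380 in injured rabbits. Those cells were 41.9% and 26.6% of all cells kept in normal and 19.5% and 16.0% in injured rabbits. The part of RNA from other cells in the MEF2C values of urothelium was not tested.

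**Figure D2:**
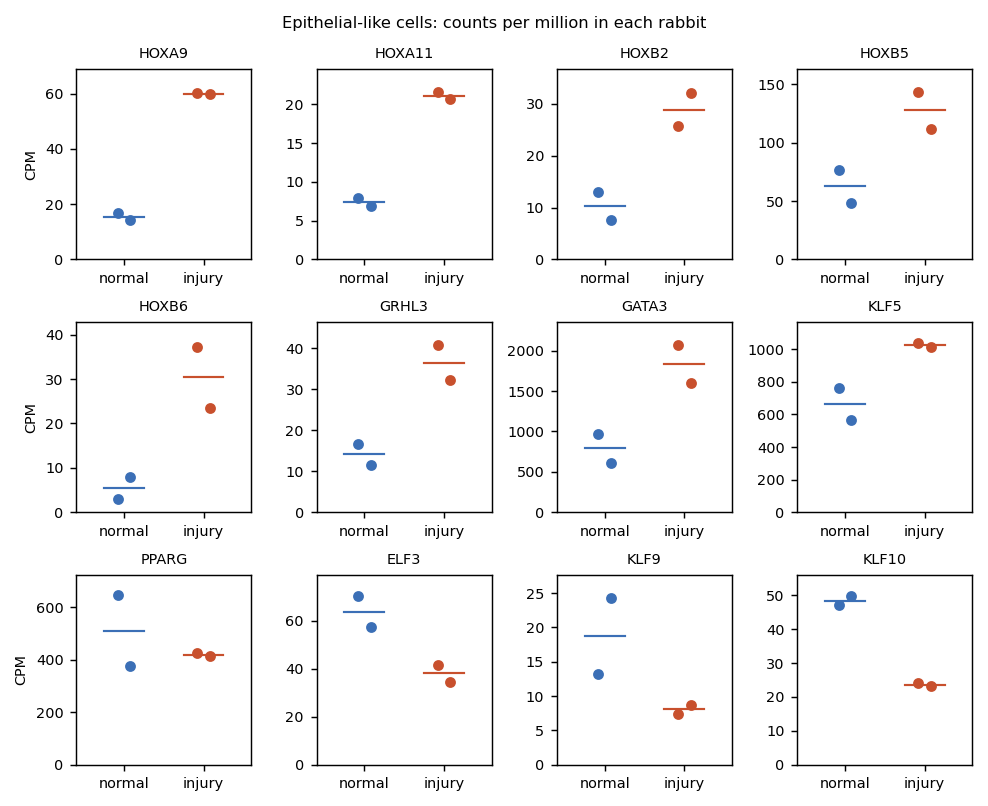
CPM of 12 members in epithelial-like cells, with 1 point per rabbit (2 normal in blue, 2 injured in red), a bar at the mean of each group and vertical axes that start at 0. The groups do not overlap for HOXA9, HOXA11, HOXB2, HOXB5, HOXB6, GRHL3, GATA3, KLF5, ELF3, KLF9 and KLF10 and overlap for PPARG, and only HOXA9 passed the test. The 12 genes were chosen for display, and the share of all genes without overlap was not counted.

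The make-up of the urothelium moved with the groups. KRT5 cells numbered 145, 58, 46 and 65 and uroplakin cells 119, 25, 392 and 143 in Normal_1, Normal_2, Injury_1 and Injury_2, and the median mitochondrial share was 10.3% and 10.7% in normal against 8.14% and 9.24% in injured rabbits. Within KRT5 cells alone HOXA9 had a log2 fold change of 2.12 (SE 0.41, adjusted p = 0.0648), and within uroplakin cells alone of 1.29 (SE 0.38, adjusted p = 0.242), both in the direction of the whole class. GATA3 had 1.1 (SE 0.33) in KRT5 cells and 0.16 (SE 0.34) in uroplakin cells, and GRHL3 had 2.29 (SE 0.45) and 0.23 (SE 0.32), with the larger value in KRT5 cells for both genes. HOXB6 had 2.50 (SE 0.77) and 2.10 (SE 0.56), close in both. None of these was called within 1 gate, and the difference between gates was not tested. The summed level of 5 fibroblast markers in epithelial-like cells ran from 129 CPM in Normal_1 to 1744 in Normal_2, and TCF21, a fibroblast factor, from 0.19 to 24.0 CPM in the same rabbits, with 1139 and 1583 CPM of markers and 7.18 and 8.72 CPM of TCF21 in the injured ones. The part of fibroblast RNA in that spread was not tested.

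HOX genes differed between tissue classes by cluster. The 8 HOXB genes of the matrices summed to 87.5 to 247 CPM per rabbit in epithelial-like cells and 96.5 to 241 CPM in endothelial-like cells, but to 1.2 to 4.79 CPM in fibroblast-like cells and 4.28 to 12.9 CPM in smooth muscle cells and pericytes. No rabbit's stromal sum reached the lowest epithelial or endothelial sum. HOXB5 gave most of the UMIs in the epithelial and endothelial sums, at 121 ± 54.6 CPM (SD, n = 4) in endothelial-like, 95.2 ± 41.3 in epithelial-like and 1.5 ± 1.28 in fibroblast-like cells. HOXB2 was at 21.9 ± 4.39 CPM in endothelial-like and 19.6 ± 11.2 in epithelial-like cells, which did not differ beyond their spread.

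The 10 HOXA genes had another order, with 169 to 228 CPM in smooth muscle cells and pericytes, 84.4 to 123 in fibroblast-like, 35.5 to 113 in epithelial-like and 30.5 to 40.4 in endothelial-like cells. HOXA11 was at 45.1 ± 13.4 CPM in fibroblast-like cells, 44.4 ± 12.7 in smooth muscle cells and pericytes and 14.3 ± 7.91 in epithelial-like cells, and at 0.75 ± 0.11 in endothelial-like cells. HOXA13, the most posterior HOXA gene, was at 9.78 ± 3.00 CPM in fibroblast-like cells against 0.17 ± 0.15 for the endothelial class, and HOXA10 stayed at or below 1.72 ± 0.72 CPM throughout. HOXC11, the one HOXC gene with a symbol, was at 10.2 ± 4.90 CPM in fibroblast-like cells and had 0 UMIs in epithelial-like cells, which allows up to 0.142 CPM there by a limit of 3 counts over the 4 libraries. Across rabbits the HOXA sum of epithelial-like cells was 48.9 and 35.5 CPM in normal and 113 and 111 CPM in injured bladders, with most of its UMIs from HOXA9, HOXA11 and HOXA5.

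**Figure D3:**
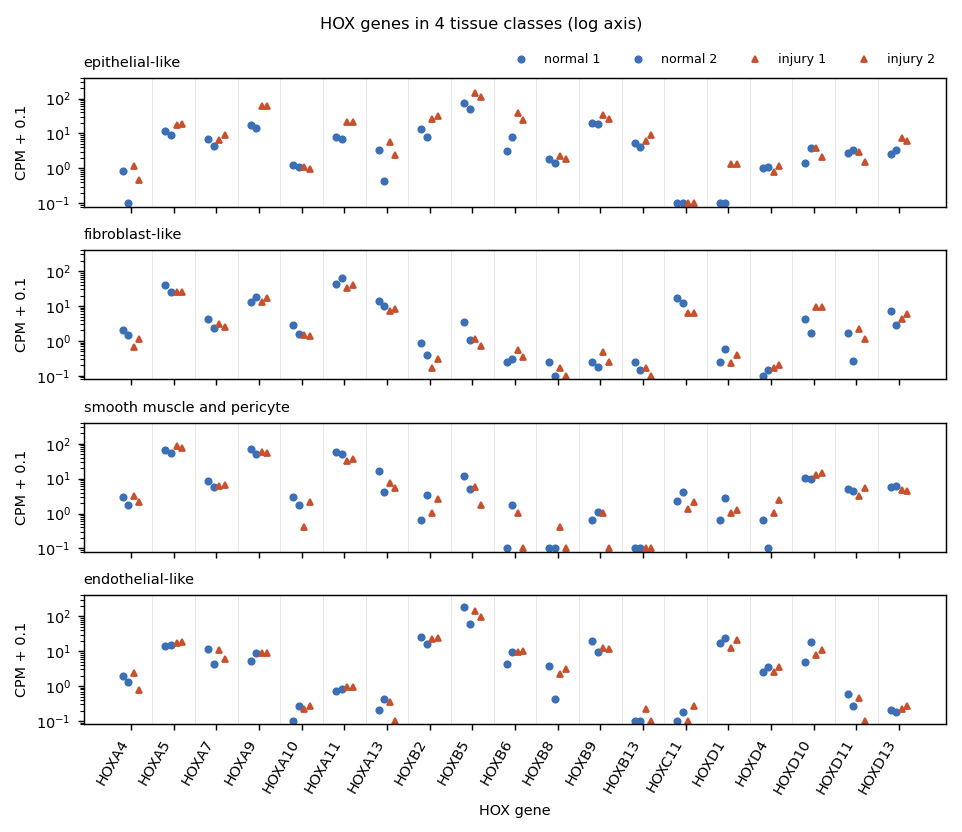
Level of 19 HOX genes with a mean of at least 1 CPM in one of the 4 tissue classes, as CPM + 0.1 on a log axis, by gene (horizontal axis) and class (panels), with 1 point per rabbit (blue circles normal, red triangles injured). HOXB2, HOXB5, HOXB6 and HOXB9 are high in epithelial-like and endothelial-like cells and near the floor in fibroblast-like cells, where HOXA11 and HOXC11 are high.

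The endothelial-like cells (5475 cells, 885 to 1804 per rabbit) had 8 of the 43 members at their highest level, but only HOXD1 was clear of the next class in every rabbit. HOXD1 was at 17.5, 23.1, 12.6 and 20.9 CPM in Normal_1, Normal_2, Injury_1 and Injury_2, against 2.92 ± 5.06 CPM in glial-like cells (SD, n = 3). TBX21, better known as the T-bet factor of type 1 T cells, was at 53.6 ± 15.6 CPM in endothelial-like and 32.5 ± 5.40 CPM in T cell-like cells (SD, n = 4), with overlap. PROX1 was at 25.4 ± 29.5 CPM, an SD above its mean. KLF7, SOX13 and KLF3 were also highest here, all with overlap with the next class.

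PROX1 was found in the lymphatic cells. Cells with at least 2 of the markers CCL21, MMRN1 and LYVE1 (109 cells over all 4 rabbits) were set against endothelial-like cells with none of them (4141 cells, called blood-gated) in the 3 rabbits with at least 10 lymphatic cells, which left out Normal_1 with 3. PROX1 was at 189, 734 and 1001 CPM in the lymphatic-gated cells of Normal_2, Injury_1 and Injury_2 and at 1.27, 6.70 and 14.8 CPM in their blood-gated cells, a log2 fold change of 6.44 (SE 0.27, adjusted p = 5.99e-12). HOXA5 was also higher in lymphatic-gated cells, at 77.9 ± 67.9 against 15.9 ± 2.82 CPM (SD, n = 3, log2 fold change 2.17, SE 0.43, adjusted p = 0.00217). KLF15, a metabolic KLF, was higher too (2.60, SE 0.79, adjusted p = 0.0420), on only 1, 2 and 4 UMIs in the lymphatic-gated cells.

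Lower in lymphatic-gated cells were PPARG, TBX21 and HOXD1. PPARG had 1 UMI in all lymphatic-gated cells of these rabbits, against 15.1, 29.3 and 32.8 CPM in blood-gated cells (log2 fold change -4.36, SE 0.87, adjusted p = 0.00245). TBX21 was at 13.7 ± 13.1 against 45.3 ± 12.8 CPM (-2.00, SE 0.52, adjusted p = 0.0184) and HOXD1 at 5.80 ± 0.89 against 22.8 ± 6.18 CPM (-2.15, SE 0.60, adjusted p = 0.0259). In the lymphatic-gated cells of Normal_2, Injury_1 and Injury_2, TBX21 had only 4, 0 and 5 UMIs and HOXD1 only 1, 1 and 2. Of 32 members tested 6 were called, beside 10.4% of 5690 genes, with a median log2 fold change of -0.20 over the members and -0.02 over all genes. Without Injury_2, the rabbit with the most lymphatic-gated cells, 2 members were called, and DESeq2 called 3, beside 318 of all genes. The lymphatic-gated cells of Normal_2 held 2393 CPM of summed fibroblast markers, against 437 and 455 CPM in Injury_1 and Injury_2, and their part in these values was not tested. In the list of other lineage factors 3 of 7 tested were called, all lower in lymphatic-gated cells, among them the Notch target HEY1 (-1.92, SE 0.30, adjusted p = 0.000272).

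Arterial-gated cells (778, with GJA5, BMX, SEMA3G, DLL4 or EFNB2) and venous-gated cells (2616, with SELP, SELE or VCAM1) differed in 15 of 32 members, beside 21.5% of 6070 genes, 12 higher and 3 lower in arterial-gated cells. The median log2 fold change was 0.34 over the members and -0.01 over all genes. SOX5 was at 30.4, 8.02, 8.39 and 24.5 CPM in the arterial-gated cells of Normal_1, Normal_2, Injury_1 and Injury_2 and at 4.51, 2.48, 1.00 and 1.56 CPM in their venous-gated cells (log2 fold change 2.54, SE 0.34, adjusted p = 0.000167). SOX13, its close relative, was at 33.4, 19.5, 81.1 and 68.4 against 16.7, 7, 23.2 and 23.1 CPM (1.25, SE 0.18, adjusted p = 0.000280). KLF12 was at 22.7 ± 5.71 against 6.10 ± 1.32 CPM (SD, n = 4, 1.66, SE 0.21, adjusted p = 0.000103). All 3 were higher in the arterial-gated cells of every rabbit.

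PPARG was higher on the arterial side as well, at 26.6, 24.8, 61.5 and 71.0 against 10.3, 8.81, 20.2 and 7.18 CPM (1.70, SE 0.27, adjusted p = 0.000687). HOXD1, ELF2, KLF9, FOXN3, HOXA5, HOXD10, KLF3 and ZEB1 were higher by log2 fold changes of 0.38 to 0.88. On the venous side lay TBX21, at 67.5 ± 22.5 CPM against 23.0 ± 22.3 in arterial-gated cells (-1.47, SE 0.34, adjusted p = 0.00771), KLF5 (-0.96, SE 0.17, adjusted p = 0.00106) and ELF4 (-0.80, SE 0.21, adjusted p = 0.0178). HEY1, a Notch target known in arteries and 1 of 4 called in the list of other lineage factors, was at 226 ± 91.5 against 85.5 ± 34.4 CPM (1.2, SE 0.10, adjusted p = 4.37e-06). With the rabbit left out of the fit, 2 of the 32 members were called.

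**Figure D4:**
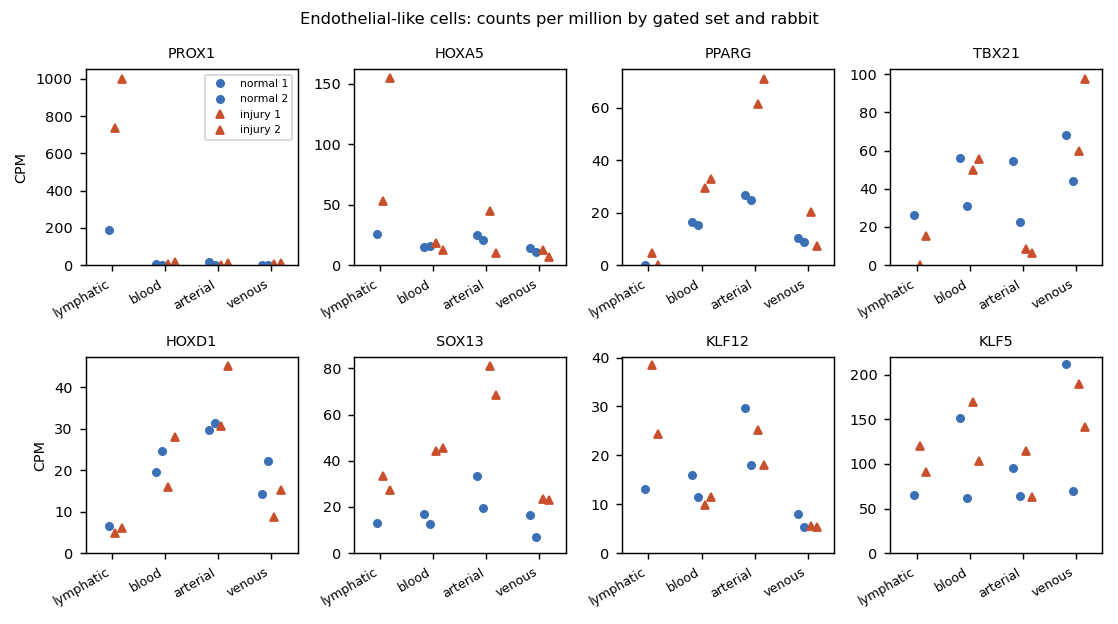
CPM of 8 members in 4 gated sets of endothelial-like cells, with 1 point per rabbit (blue circles normal, red triangles injured) and vertical axes that start at 0. PROX1 is high in lymphatic-gated cells alone, PPARG, HOXD1 and SOX13 are highest in arterial-gated cells, and TBX21 and KLF5 in venous-gated cells.

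In injured against normal endothelium, edgeR called 0 of 38 members, beside 0% of 7562 genes. An unadjusted p under 0.05 was reached by 3 members and by 517 of all genes. DESeq2 called 1 member, beside 55 of all genes. PROX1 was at 4.86 and 3.70 CPM in normal and 26.2 and 66.8 CPM in injured rabbits (log2 fold change 3.36, SE 0.51, adjusted p = 0.532). It was the member that DESeq2 called (adjusted p = 3.82e-08). Lymphatic-gated cells numbered 3, 17, 32 and 57 in Normal_1, Normal_2, Injury_1 and Injury_2. Within blood-gated cells the log2 fold change of PROX1 was 1.84 (SE 0.66, adjusted p = 0.739). The part of the lymphatic-gated cells in the PROX1 values was not tested. SOX13 was at 17.8 and 11.7 CPM in normal and 34.7 and 36.7 CPM in injured rabbits (1.21, SE 0.25, adjusted p = 0.532), with 1.53 (SE 0.24) in blood-gated cells. PPARG was at 14.9 and 14.2 against 26.4 and 22.5 CPM (0.67, SE 0.24, adjusted p = 0.708). The 2 groups did not overlap for any of the 3, and the share of all genes without overlap was not counted.

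The fibroblast-like cells (8749 cells, 1236 to 3254 per rabbit) had 4 of the 43 members at their highest level. TCF21, a basic helix-loop-helix factor of organ mesenchyme, was at 279, 826, 719 and 662 CPM in Normal_1, Normal_2, Injury_1 and Injury_2, above the 126 ± 70.9 CPM of smooth muscle cells and pericytes (SD, n = 4) with no overlap. Normal_1 was the low rabbit. FOXP2, a forkhead repressor, was at 15.9 ± 4.68 CPM against 4.09 ± 2.48 in smooth muscle cells and pericytes, also with no overlap. HOXA11 and HOXC11 were the other two.

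Between 2 gated sets of fibroblast-like cells 18 of 39 members were called, beside 23.5% of 7354 genes. Cells with WIF1, HHIP or PTPRQ (2186), secreted or membrane proteins that include inhibitors of Wnt and Hedgehog signals, were compared with cells with SFRP2 or PCOLCE2 (5144), genes of Wnt modulation and collagen processing. SOX5, a partner of SOX9 in cartilage, was at 81.4, 87.3, 112 and 129 CPM in the WIF1-HHIP cells of Normal_1, Normal_2, Injury_1 and Injury_2 and at 15.8, 11.7, 8.88 and 7.84 CPM in the SFRP2-PCOLCE2 cells (log2 fold change 3.10, SE 0.25, adjusted p = 0.000183). TBX2, a T-box repressor, was at 22.7, 27.3, 15.6 and 21.7 against 8.31, 6.58, 2.43 and 2.87 CPM (2.09, SE 0.24, adjusted p = 0.000927). HOXC11 was at 19.3 ± 4.44 against 6.73 ± 3.46 CPM (SD, n = 4, 1.44, SE 0.25, adjusted p = 0.00558). The ranges of SOX5, TBX2 and HOXC11 did not overlap between the subsets.

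Also higher in the WIF1-HHIP cells of all 4 rabbits were TBX21, GATA3, RUNX2, FOXO4 and KLF5. GATA3 was at 119, 26.3, 32.0 and 23.5 CPM against 15, 4.54, 11.7 and 11.1 (1.86, SE 0.34, adjusted p = 0.00690), with Normal_1 far above the rest. The summed level of 8 epithelial markers was 19.6 to 108 CPM in WIF1-HHIP cells and 21.0 to 94.1 in SFRP2-PCOLCE2 cells. Summed smooth muscle and pericyte markers were 1126 to 3297 CPM against 269 to 357, and summed fibroblast markers 14610 to 45580 against 61090 to 113330, so the subsets also differed in those. The part of these in the results was not tested.

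Lower in WIF1-HHIP cells were 10 members. FOXP2 was at 1.89, 2.97, 4.10 and 3.04 CPM against 19.6, 20.5, 23.8 and 22.8 (-3.03, SE 0.19, adjusted p = 6.96e-05), and KLF12 at 2.87 ± 0.70 against 28.2 ± 13.1 CPM (-3.55, SE 0.25, adjusted p = 9.77e-05), each without overlap. ZEB2 was at 63.4 ± 9.37 against 140 ± 40.7 CPM (-1.29, SE 0.14, adjusted p = 0.000728) and FOXO3 at 51.4 ± 4.97 against 84.2 ± 16.4 (-0.88, SE 0.14, adjusted p = 0.00365). HOXD13 (-1.98, SE 0.40, adjusted p = 0.0110) and HOXD10 (-2.49, SE 0.59, adjusted p = 0.0208), both posterior HOXD genes, were also lower, whereas HOXC11 was higher. HOXD10 was not lower in Normal_1, at 4.42 against 4.29 CPM. It had only 7, 2, 2 and 4 UMIs in the WIF1-HHIP cells of Normal_1, Normal_2, Injury_1 and Injury_2. TBX20, ELF2, KLF3 and KLF7 made up the rest. Over all 39 members the median log2 fold change was -0.06, and -0.01 over all genes.

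In the list of other lineage factors 7 of 12 tested were called, 3 higher and 4 lower. EBF1, a mesenchymal and B cell factor, was at 2.80 ± 0.91 against 34.6 ± 7.55 CPM (-3.86, SE 0.23, adjusted p = 6.14e-05), MEIS1, a HOX cofactor, at 13 ± 4.03 against 57.4 ± 6.54 (-2.32, SE 0.16, adjusted p = 8.79e-05), and LEF1, an effector of Wnt signals, at 25.9 ± 8.72 against 3.05 ± 1.75 (3.00, SE 0.31, adjusted p = 0.000572).

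In injured against normal fibroblast-like cells edgeR called 0 of 48 members, beside 0% of 8713 genes. An unadjusted p under 0.05 was reached by 6 members and by 917 of all genes. DESeq2 called 2 members, TBX2 and HOXD10, beside 259 of all genes. TBX2 was at 13.6 and 17.9 CPM in normal and 3.84 and 6.50 in injured rabbits (log2 fold change -1.5, SE 0.37, adjusted p = 0.277), and HOXD10 at 4.17 and 1.58 against 9.07 and 9 CPM (1.89, SE 0.48, adjusted p = 0.277). WIF1-HHIP cells, high in TBX2 and low in HOXD10, numbered 282, 1447, 166 and 291 in Normal_1, Normal_2, Injury_1 and Injury_2, and SFRP2-PCOLCE2 cells 715, 1231, 1595 and 1603. Within SFRP2-PCOLCE2 cells alone TBX2 had a log2 fold change of -1.40 (SE 0.34, adjusted p = 0.213) and HOXD10 of 1.53 (SE 0.31, adjusted p = 0.172), and within WIF1-HHIP cells alone TBX2 had -0.44 (SE 0.34, adjusted p = 0.835). TCF21 had 0.42 (SE 0.55, adjusted p = 0.844) in the class as a whole. The median mitochondrial share was 8.18% and 8.56% in normal and 7.19% and 7.31% in injured rabbits, and summed fibroblast markers were 45766 and 60033 against 90353 and 97499 CPM. The part of these shifts in the results was not tested.

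The test of whether the injury effect differed from fibroblast-like to endothelial-like cells called 0 of 53 members, beside 0.0227% of 8830 genes. An unadjusted p under 0.05 was reached by 9 members and by 861 of all genes. DESeq2 called 0 members, beside 65 of all genes. PROX1 had the lowest p (log2 difference -2.23, SE 0.56, adjusted p = 0.250).

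The smooth muscle and pericyte class (2218 cells, 455 to 634 per rabbit) had 5 members at their highest level. FOXS1, a forkhead factor of mural cells, was at 62.8, 133, 120 and 86.0 CPM in Normal_1, Normal_2, Injury_1 and Injury_2. Neutrophil-like cells, the next class, had 6.10 ± 10.6 CPM (SD, n = 3) on 2 UMIs, and fibroblast-like cells 2.40 ± 1.55 CPM (SD, n = 4). TBX2 was at 19.6 ± 0.44 CPM (SD, n = 4), above the 10.5 ± 6.45 CPM of fibroblast-like cells in every rabbit. KLF9 was at 372 ± 101, ZEB1 at 82.2 ± 45.2 and HOXA5 at 70.3 ± 13.8 CPM, each with overlap with the next class. TBX18, known from mural and ureteral mesenchyme, was low at 2.30 ± 0.71 CPM.

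Smooth muscle-gated cells (336, with ACTG2 or DES) and pericyte-gated cells (878, with RGS5, HIGD1B, ABCC9 or KCNJ8) differed in 10 of 21 members, beside 28.3% of 4583 genes, 9 lower and 1 higher in smooth muscle. PPARG was at 0, 5.26, 2.71 and 1.70 CPM in the smooth muscle-gated cells of Normal_1, Normal_2, Injury_1 and Injury_2 and at 33.1, 24.4, 35.5 and 38.0 CPM in their pericyte-gated cells (log2 fold change -3.37, SE 0.47, adjusted p = 0.000925). TBX21 was at 7.73, 2.10, 0 and 0 against 19.9, 20.9, 14.2 and 20.5 CPM (-3.37, SE 0.63, adjusted p = 0.00404). KLF12 was at 12.8 ± 5.36 against 41.9 ± 14.8 CPM (SD, n = 4, -1.96, SE 0.33, adjusted p = 0.00258) and HOXA9 at 29.4 ± 8.53 against 71.8 ± 5.29 CPM (-1.35, SE 0.24, adjusted p = 0.00307). PPARG, TBX21, KLF12 and HOXA9 were lower in smooth muscle-gated cells in every rabbit.

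FOXS1 was higher in pericyte-gated cells in 3 of 4 rabbits, at 114 ± 52.2 against 53.9 ± 31.5 CPM (-1.27, SE 0.40, adjusted p = 0.0417), and HOXA5 in 3 of 4 (-1.19, SE 0.29, adjusted p = 0.0150). Normal_1 went the other way for both, with FOXS1 at 50.4 CPM in pericyte-gated against 85.0 in smooth muscle-gated cells and HOXA5 at 63.6 against 65.7. ZEB2, KLF9 and ELF2 were higher in pericyte-gated cells in all 4. The one member higher in smooth muscle was TCF21, at 11.6, 300, 228 and 401 CPM in Normal_1, Normal_2, Injury_1 and Injury_2 against 46.4, 116, 83.4 and 87.7 (1.21, SE 0.39, adjusted p = 0.0451), with Normal_1 in the other direction. Summed fibroblast markers were 2126, 16262, 25263 and 37485 CPM in those smooth muscle-gated cells and 1469 to 4941 CPM in pericyte-gated cells. Their part in the TCF21 result, and in the results of the members lower in smooth muscle, was not tested. Of the list of other lineage factors 5 of 10 tested were called, with MYOCD, the coactivator of smooth muscle contractile genes, at 193 ± 74.5 against 29.8 ± 11.3 CPM (2.59, SE 0.21, adjusted p = 5.09e-05). The median log2 fold change was -0.52 over the 21 members and -0.01 over all genes. DESeq2 called 7 members, beside 881 of all genes, and 4 or 5 members were called when Injury_1, Injury_2 or Normal_2 was left out. Under 13 other settings TCF21 kept its call in 5, ELF2 in 4 and FOXS1 in 7, and all 3 lost it with DESeq2 and without Injury_1, Injury_2 or Normal_2.

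**Figure D5:**
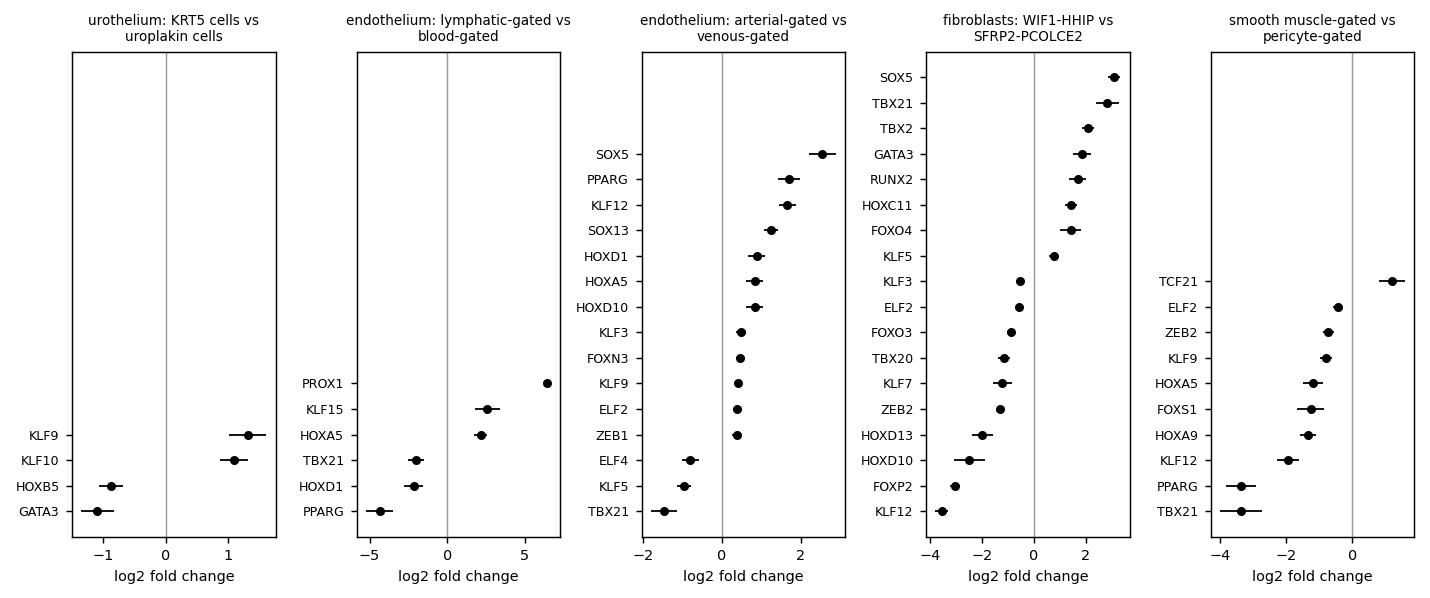
Log2 fold change (points, with bars for 1 SE) of every member called in each of the 5 comparisons of gated cells within a class (panels), with positive values higher in the first set named. PPARG and TBX21 appear together in 3 panels, with PPARG higher and TBX21 lower in arterial-gated cells and both lower in lymphatic-gated and in smooth muscle-gated cells.

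In the same class, edgeR called 0 of 36 members between injured and normal rabbits, beside 0% of 6840 genes. An unadjusted p under 0.05 was reached by 2 members and by 540 of all genes. DESeq2 called 0 members, beside 65 of all genes. ZEB1 was at 148 and 77.2 CPM in normal and 52.3 and 51.7 in injured rabbits (log2 fold change -1.06, SE 0.34, adjusted p = 0.520), and HOXA11 at 58.9 and 50.7 against 31.0 and 37.1 CPM (-0.64, SE 0.25, adjusted p = 0.614). The median mitochondrial share of the class was 12% and 12.3% in normal and 8.80% and 9.57% in injured rabbits, and endothelial markers summed to 259 and 391 against 131 and 50.5 CPM. ZEB1 was at 76.2 ± 11.7 CPM in endothelial-like cells, and the part of these shifts in its value was not tested. Within pericyte-gated cells ZEB1 had -1.36 (SE 0.31, adjusted p = 0.143) and within smooth muscle-gated cells -0.17 (SE 0.37, adjusted p = 0.980).

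Glial-like cells (117 cells) and mast cell-like cells (106 cells) were few, so their levels rest on small counts and on 3 rabbits each. PAX3, a neural crest factor, had 9 UMIs in glial-like cells, 3 in each of 3 rabbits, or 26.2 ± 18.2 CPM (SD, n = 3), and at most 2 UMIs in any other class. ZEB2, known from Schwann cell development, was at 464 ± 34.6 CPM in glial-like cells, above the 182 ± 46.6 CPM of smooth muscle cells and pericytes with no overlap. SOX5 was at 92.7 ± 41.2 CPM and FOXN2 at 96.3 ± 38.8 CPM. GATA1, the erythroid and mast cell factor, had 23 UMIs in mast cell-like cells (82.4 ± 46.0 CPM, n = 3) and at most 1 in any other class. FOXO3 was at 618 ± 121 CPM there and 364 ± 99.1 CPM in neutrophil-like cells.

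In macrophage-like cells (1430) edgeR called 0 of 19 members between injured and normal rabbits, beside 0% of 5675 genes. An unadjusted p under 0.05 was reached by 5 members and by 700 of all genes. DESeq2 called 0 members, beside 50 of all genes, but gave no adjusted p for HOXB5, which it could therefore not call. HOXB5 had the lowest p, at 6.67 and 5.68 CPM in normal and 1.02 and 0.97 in injured rabbits on 4 or 5 UMIs each (log2 fold change -2.65, SE 0.64, adjusted p = 0.223), followed by KLF7, at 8 and 7.96 against 2.86 and 2.67 CPM (-1.60, SE 0.50, adjusted p = 0.306). Summed endothelial markers in the class were 535 and 467 CPM in normal and 417 and 316 in injured rabbits, and both genes are also high in endothelial-like cells. Their part in these values was not tested. FOXO3, a stress-regulated forkhead factor, was at 34.7 and 46.6 CPM in normal and 70.7 and 80.2 in injured rabbits (log2 fold change 0.80, SE 0.27, adjusted p = 0.320). ZEB2, which is needed for macrophage identity, was at 86.7 and 98.9 against 180 and 129 CPM (0.64, SE 0.24, adjusted p = 0.369), and GATA3 had 1.47 (SE 0.57, adjusted p = 0.374).

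In T cell-like cells (1085) edgeR called 0 of 16 members, beside 0% of 3998 genes. An unadjusted p under 0.05 was reached by 2 members and by 447 of all genes. DESeq2 called 0 members, beside 38 of all genes. FOXP3, the factor of regulatory T cells, was at 3.07 and 2.14 CPM in normal rabbits, on 1 UMI each, and at 31.3 and 21.3 CPM in injured rabbits, on 64 and 25 UMIs (log2 fold change 3.26, SE 0.63, adjusted p = 0.203). DESeq2 gave no adjusted p for FOXP3 (log2 fold change 3.29) or KLF12, so it could call neither. PPARG was at 12.3 and 8.56 against 38.6 and 68.9 CPM (2.32, SE 0.57, adjusted p = 0.259). Normal rabbits gave 98 and 106 T cell-like cells and injured ones 565 and 316. GATA3 did not separate the groups, at 1578 and 599 CPM in normal and 865 and 887 in injured rabbits. Markers of other cells moved with the groups in this class. Neutrophil markers summed to 24.6 and 38.5 CPM in normal and 671 and 643 CPM in injured rabbits, and mast cell markers to 685 and 409 against 1140 and 992 CPM, beside 2116 to 2971 CPM of T cell markers. Their part in the values of FOXP3 and PPARG was not tested. PAX5, the B cell identity factor, had 8 UMIs in the B cell-like class (6.51 ± 5.95 CPM, n = 3), whose plasma cell markers JCHAIN and MZB1 summed to 217 to 8743 CPM.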

How the data were processed

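UMI counts per gene and barcode were made by the authors with Cell Ranger (6.0.1 per the file headers) and deposited without normalization, for 4 samples of single cells. The genome release is not given in the sources used here. Cells were kept from 500 UMIs and 200 detected genes upwards, if no more than 15% of their UMIs came from the 13 mitochondrial genes. Cells were integrated and clustered in Seurat 5.3.0 (2000 variable genes less 19 members, 30 components, resolution 0.8), and clusters were named from fixed markers, at least 3 of them raised above the median of clusters, a rule set after the data were seen. Doublets were scored with Scrublet (scanpy 1.11.5) and not removed. UMIs were summed per rabbit and class (at least 50 cells) or gated set (at least 10 cells in at least 3 rabbits, with the rabbit as a term) and tested in edgeR 4.0.16 in R 4.3.3 (filterByExpr, TMM, quasi-likelihood test, Benjamini-Hochberg adjustment over all genes tested, threshold 0.05), with DESeq2 1.42.0 as an alternative. The script was tested on simulated data. Members, lists and gates were chosen with earlier results of these data known, and gate genes are no results.

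Members named are those called in a comparison (at most 12, lowest p first), up to 8 highest in each class at 10 CPM or more, and a fixed list of known lineage factors. Named beyond that rule, after their values were seen, were HOXB13, members called past the first 12 (HOXD10, HOXD13, KLF3, KLF5, KLF7, FOXO4 and ZEB1), uncalled members among the lowest p of an injury comparison, and the other lineage factors, taken from a fixed list. With 2 rabbits per group, p-values measure the spread between these rabbits, and intervals and limits cover counting error only. The replicate numbers are names, not pairs of animals.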

Additional observations from a re-analysis of the deposited data

How the results depend on the processing

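Counts of members called are given here beside those of the report, with counts over all genes for some settings. For the settings without a count over all genes, here and above, a change in members called cannot be set against the change over all genes. In injured against normal urothelium (1 called), DESeq2 called 5, no filter on low counts 9, and the 10% mitochondrial limit, KRT5 cells alone and uroplakin cells alone 0 each. Over all genes the calls moved too, from 121 of 7045 in the report to 512 of 7045 with DESeq2 and 967 of 12057 without the filter. They were 50 of 6211 at the 10% limit, 45 of 4892 in KRT5 cells alone and 5 of 5517 in uroplakin cells alone. Leaving out 1 rabbit gave 0 to 5, with 0 without Injury_1 or Injury_2, 4 without Normal_1 and 5 without Normal_2. DESeq2 called 2 members in the fibroblast class, beside 259 of 8713 genes, and 1 in the endothelial class, beside 55 of 7562 genes (0 in the report). No filter gave 2 in fibroblast-like, 1 in smooth muscle and pericyte, 1 in macrophage-like and 2 in T cell-like cells and 2 for the difference between classes (0 in the report). Without the filter 469 of 13570 genes were called in fibroblast-like and 300 of 12009 in smooth muscle and pericyte cells. Leaving out 1 rabbit gave 0 to 1 in smooth muscle and pericyte cells (ZEB1, without Normal_2), 0 to 1 in T cell-like cells (PPARG, without Injury_1) and 0 to 1 for the difference between classes (without Normal_1 or Normal_2).

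For KRT5 against uroplakin cells (4 called), a gate at 2 UMIs gave 2, the 10% mitochondrial limit 1, no filter 8, and leaving out 1 rabbit 2 to 6. For lymphatic against blood-gated cells (6 called), DESeq2 gave 3, beside 318 of 5690 genes, and leaving out 1 rabbit gave 2 to 9. For smooth muscle against pericyte-gated cells (10 called), the 10% mitochondrial limit gave 5 and leaving out 1 rabbit 4 to 9. Without the rabbit as a term (no replicate block), the calls were 0 for KRT5, 3 for lymphatic, 2 for arterial, 11 for WIF1-HHIP and 5 for smooth muscle cells.

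With the replicate number as a block in the injury comparisons, 0 members were called in urothelium (HOXA9 adjusted p = 0.0782, edgeR) and 1 in endothelium (PROX1, 0.0109). The numbers are only names: same-numbered samples correlated at -0.0327 to 0.203 in their deviations from the group means. The cause of these changes was not tested. Of 694 repeats over all 54 called gene results, 563 kept the call, 131 lost it and 0 changed sign. Settings in which the gene fell below the filter on low counts are not among these repeats. For the lymphatic comparison the repeat without Normal_1 was the same fit, because that rabbit was already left out. Besides the smooth muscle calls named above, HOXD10 and ZEB1 in arterial-gated cells and KLF7 in WIF1-HHIP cells kept theirs in 6 of 13 settings each. Cells alone of one gate, and the blood-gated cells, were alternatives chosen after seeing the data. Rare classes held few cells, and several genes rest on UMIs in single digits.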
